A study of Rattus norvegicus with 14 samples.

Results

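Genes of cholesterol synthesis and its feedback control were followed in the small intestine of 20-day-old rats perfused with solutions labelled HG and HF. The members were the probes whose symbol in the platform annotation was Hmgcs1, Idi1, Fdps, Fdft1, Sqle, Lss, Cyp51 or Insig1. Of these 8 genes 7 were found, each by 1 probe, which makes them 7 of the 4682 features tested. Hmgcs1 was not found under its symbol and was not analysed here. All of the enzymes measured belong to cholesterol synthesis, and no receptor for lipoproteins is among the members.

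The study set RNA of HF intestine against RNA of HG intestine on 2-colour arrays, 5 pairs after 4 h of perfusion and 4 pairs with their own numbering after 20 min. HG and HF are not spelled out in the labels and are taken to mean high glucose and high fructose. Strain, sex and feeding are not given in the labels, and they do not say if each pair is a separate rat. Any p-value below therefore reflects only how far these arrays scattered, and that scatter may be technical. On 3 same-RNA arrays, named 1HG, 3HG and 3HF, a 4 h extract was hybridised against itself, and 1 further array was a second array of pair 2 at 4 h. Another array held the primers of the labelling kit. Every value is a log2 ratio within an array, with base 2 assumed, so it gives no level of a gene, and more RNA under HF reads the same as less RNA under HG. For the same reason the labelled tissue could not be checked by the level of its markers. Whole intestine was measured, and in such RNA fewer cells of a type cannot be told apart from less RNA per cell.

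Ratios above 0 are read as the HF side, meaning a higher RNA in HF intestine, and those below 0 as the HG side. The labels do not state this. Slc2a5, the fructose transporter gene known to be induced by fructose, had a mean ratio of 1.65 ± 0.25 (SD, n = 5) at 4 h, and -1.66 on the second array of pair 2, whose title appears to mark exchanged dyes. With the opposite direction every sign below would turn, and with it each count below or above 0 and each highest or lowest pair. Sizes, p-values and the counts of calls and of groups that did not overlap would stay. The median of an array as deposited lay between -0.07 and 0.02. The SD of an array over all probes was 0.33 to 0.40 on the arrays at 4 h and 20 min. It was 0.82 on the second array of pair 2 and 1.39 on the same-RNA array 1HG. On the 20 min arrays 37 to 123 probes were listed at exactly 0, which no probe was on any other array, and such entries were not read as measurements in the text. They stayed in the main fit. The 4 h and 20 min arrays are separate sets that differ in these entries. In comparisons between them perfusion time cannot be told apart from the set of arrays.

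Cholesterol is built from acetyl-CoA through mevalonate, isoprenoids and squalene, which is closed into lanosterol and then trimmed to cholesterol. When sterols are scarce in the endoplasmic reticulum, SREBP transcription factors, above all SREBP2, move to the nucleus and raise the genes of nearly all these steps together. When sterols are plentiful, INSIG proteins hold the SREBPs and their escort SCAP in place. The intestine is a major site of cholesterol synthesis as well as of its absorption, and enterocytes pass cholesterol on in lipoproteins.

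The promoters of 4 members are shown because 3 of these genes, Fdps, Idi1 and Lss, had their lowest ratio at 4 h in pair 4 and a ratio on the HF side in pair 5, whereas Cyp51 was on the HG side in every pair. The RefSeq promoter table of the GRCr8 build holds 5 of the 7 measured members and neither Fdft1 nor Sqle. Each sequence runs 5′ to 3′ on the gene's strand from 250 bases before the start to 50 after it. Capitals mark CCAAT, the box bound by NF-Y, and GGGCGG, a GC box of the kind bound by Sp1, each on either strand (ATTGG and CCGCCC on the other). Both factors are known to act beside SREBPs.
Cyp51, chr4:30991443-30991742, plus strand: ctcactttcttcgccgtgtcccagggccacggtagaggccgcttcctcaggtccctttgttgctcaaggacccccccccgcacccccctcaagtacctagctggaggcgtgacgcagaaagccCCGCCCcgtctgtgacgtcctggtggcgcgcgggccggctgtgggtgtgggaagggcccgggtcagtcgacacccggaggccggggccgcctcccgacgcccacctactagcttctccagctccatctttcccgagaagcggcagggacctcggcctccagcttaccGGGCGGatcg
Fdps, chr2:176804767-176805066, minus strand: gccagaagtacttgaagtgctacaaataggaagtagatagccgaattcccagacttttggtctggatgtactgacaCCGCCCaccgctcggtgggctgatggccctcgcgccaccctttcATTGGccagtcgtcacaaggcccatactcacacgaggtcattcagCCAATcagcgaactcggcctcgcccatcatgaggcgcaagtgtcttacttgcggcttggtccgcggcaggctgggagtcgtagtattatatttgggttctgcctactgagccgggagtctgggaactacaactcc
Idi1, chr17:66547475-66547774, minus strand: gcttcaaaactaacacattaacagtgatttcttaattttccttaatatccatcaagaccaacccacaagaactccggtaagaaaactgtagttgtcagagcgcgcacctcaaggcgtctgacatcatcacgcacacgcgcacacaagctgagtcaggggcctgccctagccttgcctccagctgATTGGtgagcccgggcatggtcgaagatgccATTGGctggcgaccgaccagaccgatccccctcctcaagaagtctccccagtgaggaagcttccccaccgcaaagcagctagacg
Lss, chr20:12118181-12118480, minus strand: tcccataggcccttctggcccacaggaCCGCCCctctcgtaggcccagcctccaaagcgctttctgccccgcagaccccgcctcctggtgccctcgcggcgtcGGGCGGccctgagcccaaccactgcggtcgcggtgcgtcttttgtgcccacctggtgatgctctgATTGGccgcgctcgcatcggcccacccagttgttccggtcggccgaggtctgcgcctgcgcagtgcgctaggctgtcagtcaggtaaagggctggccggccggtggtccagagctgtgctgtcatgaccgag
The Fdps and Idi1 windows each hold 2 CCAAT boxes, the Lss window 1 and the Cyp51 window 0. Lss was highest at 4 h in pair 2, and a link between the box and the ratios was not tested. The Insig1 window, not printed, also holds 1, and that gene was on the HG side in 4 of 5 pairs at 4 h and lowest in pair 2. This box occurs in 37.5% of all 33469 promoters of that resource. GGGCGG was found at 2 places in the Cyp51 window, 2 in that of Lss and 1 in that of Fdps, and in 33.1% of all promoters. The letters TCACNCCAC, written after a well-known sterol regulatory element, occurred in 1.12% of all promoters and in none of the 5 windows of measured members on either strand. Without its first letter this motif was found in the Insig1 window and in 5.8% of all promoters. Without its last letter it was found in none of the 5 windows and in 3.89% of all promoters. Another motif searched, not written out here, was about as rare as the full letters, in 1.1% of all promoters. It was found in the Fdps window from base -104, between the 2 CCAAT boxes, and is not marked by capitals. The motifs named or described are part of 11 searched and were picked with the matches in view. A match is a description of letters and not a shown site.

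Cyp51 was the member with the steadiest ratio at 4 h, on the HG side in every pair. The gene encodes lanosterol 14α-demethylase, the cytochrome P450 that takes the first methyl group off lanosterol. Its ratios at 4 h were -0.42, -0.40, -0.71, -0.39 and -0.58 in pairs 1 to 5. At 20 min they were -0.07, 0.04, 0.23 and 0.27 in pairs 1 to 4, and on the same-RNA arrays 1HG, 3HG and 3HF they were 0.08, 0.45 and 0.02. All 5 arrays at 4 h lay below every 20 min array and every same-RNA array, and the 20 min and same-RNA arrays overlapped. The ratio was lower at 4 h than at 20 min by a difference of -0.62 ± 0.12 (SE; 95% interval -0.88 to -0.36), a 1.53-fold lower ratio of HF to HG (limma adjusted p = 0.0469). Against the same-RNA arrays the 4 h difference was -0.68 ± 0.13 and did not pass (adjusted p = 0.128; unadjusted p = 0.00021), and at 20 min it was -0.07 ± 0.14 (adjusted p = 0.982).

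The call on Cyp51 between the times is close to the threshold. It was lost in each of 9 fits without 1 array, with adjusted p between 0.0539 and 0.149, and the size stayed between -0.68 and -0.56. It was also lost in 6 of 13 other settings, among them quantile normalization (adjusted p = 0.091) and the second array of pair 2 averaged in as deposited (adjusted p = 0.274), and the difference was below 0 in all 13. The ratio against 0, in which any dye effect stays, gave -0.50 ± 0.08 at 4 h (SE; adjusted p = 0.00119), in a setting that called 763 of 4682 features. The median ratio of the 10 enterocyte markers measured, of 13 listed, ranged from -0.36 to -0.10 over the arrays at 4 h, from -0.16 to -0.02 at 20 min and from -0.08 to -0.07 on the same-RNA arrays. Of these markers 6 lay below 0 between 4 h and 20 min and 0 were called, and their part in the result for Cyp51 was not tested.

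**Figure D1:**
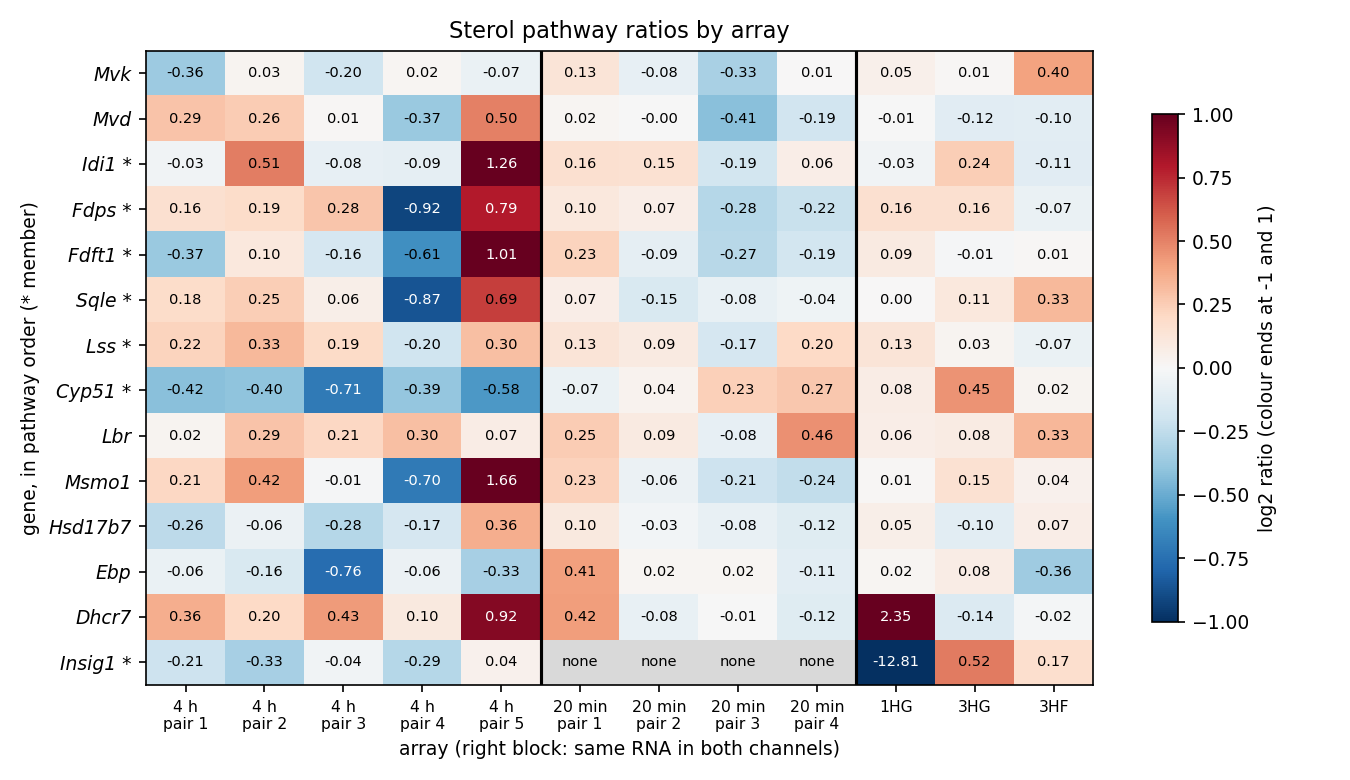
Log2 ratio of the measured genes of cholesterol synthesis and of Insig1 (rows, in pathway order; members starred) on each array of the fit (columns: 5 pairs at 4 h, 4 pairs at 20 min, 3 same-RNA arrays), printed in each cell and shown as colour that ends at -1 and 1. Idi1, Fdps, Fdft1, Sqle, Mvd, Msmo1 and Dhcr7 are highest in pair 5 and lowest in pair 4 at 4 h, and Cyp51 is below 0 in all 5 pairs. Grey cells mark the 20 min entries of Insig1, which are listed at 0.

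Idi1, Fdps, Fdft1 and Sqle, which encode enzymes before Cyp51 in the pathway, had 4 h ratios that varied far more between pairs than those of most features, and Lss did not. Idi1 encodes the isomerase that makes dimethylallyl diphosphate from isopentenyl diphosphate. Its ratios at 4 h were -0.03, 0.51, -0.08, -0.09 and 1.26 in pairs 1 to 5, against 0.16, 0.15, -0.19 and 0.06 in the pairs at 20 min. The same-RNA arrays gave -0.03, 0.24 and -0.11. Pair 5 stood highest, with a 2.39-fold higher RNA with HF, pair 2 came next, and the other 3 pairs lay within the range of the same-RNA arrays. The mean difference was 0.27 ± 0.25 between 4 h and 20 min (SE; limma adjusted p = 0.716; 95% interval -0.28 to 0.81) and 0.28 ± 0.27 between 4 h and the same-RNA arrays (adjusted p = 0.731).

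Fdps encodes farnesyl diphosphate synthase, whose product feeds sterols, dolichol, ubiquinone and protein prenylation. The 4 h ratios were 0.16, 0.19, 0.28, -0.92 and 0.79 in pairs 1 to 5, against 0.10, 0.07, -0.28 and -0.22 at 20 min and 0.16, 0.16 and -0.07 on the same-RNA arrays. Pair 4 lay far to the HG side, 1.89-fold, and pair 5 to the HF side, 1.73-fold, while pairs 1 to 3 lay close together. The 4 h mean differed from the 20 min mean by 0.18 ± 0.26 (SE; limma adjusted p = 0.84; 95% interval -0.39 to 0.76), and from the same-RNA mean by 0.02 ± 0.29 (adjusted p = 0.987).

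Fdft1 encodes squalene synthase, the first enzyme committed to sterols. At 4 h its ratios were -0.37, 0.10, -0.16, -0.61 and 1.01 in pairs 1 to 5. The 20 min ratios were 0.23, -0.09, -0.27 and -0.19, and those on the same-RNA arrays 0.09, -0.01 and 0.01. Pair 5 was again highest, at 2.01-fold to the HF side, and pair 4 lowest, and the 3 groups overlapped. The difference between 4 h and 20 min was 0.07 ± 0.26 (SE; limma adjusted p = 0.955; 95% interval -0.50 to 0.65).

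Sqle encodes squalene epoxidase, a slow step that is held under tight control by sterols. Its 4 h ratios were 0.18, 0.25, 0.06, -0.87 and 0.69 in pairs 1 to 5, against 0.07, -0.15, -0.08 and -0.04 at 20 min. On the same-RNA arrays they were 0.00, 0.11 and 0.33. Pairs 4 and 5 lay outside the range of all other arrays, on opposite sides, and the 4 arrays at 20 min were close together. The difference between the times was 0.11 ± 0.24 (SE; limma adjusted p = 0.907; 95% interval -0.41 to 0.63).

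Lss encodes lanosterol synthase, which closes the sterol rings, and its product is the substrate of Cyp51. Its ratios at 4 h were 0.22, 0.33, 0.19, -0.20 and 0.30 in pairs 1 to 5, against 0.13, 0.09, -0.17 and 0.20 at 20 min and 0.13, 0.03 and -0.07 on the same-RNA arrays. In pairs 1, 2, 3 and 5 the ratio at 4 h was above every same-RNA array, and pair 4 was below all 3 of them. The spread was smaller than in the 4 genes before it in the pathway. The difference of 0.14 ± 0.13 between 4 h and the same-RNA arrays did not pass (SE; limma adjusted p = 0.728), nor did that of 0.11 ± 0.12 between the times (adjusted p = 0.779; 95% interval -0.16 to 0.37).

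**Figure D2:**
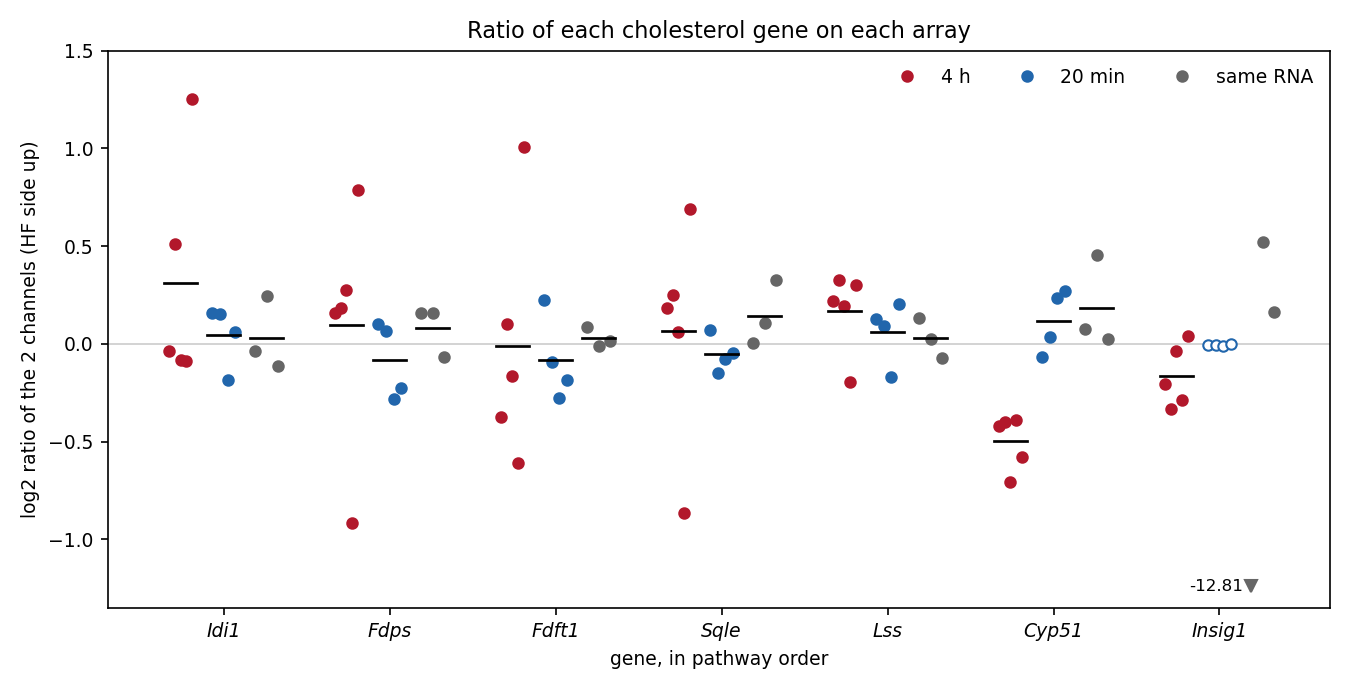
Log2 ratio of each member (y axis) on every array at 4 h (red), 20 min (blue) and with the same RNA in both channels (grey), with genes in pathway order on the x axis and bars at group means. The 5 Cyp51 values at 4 h lie between -0.71 and -0.39, below all its other values. Fdps, Fdft1 and Sqle spread to both sides at 4 h, and Idi1 mainly to the HF side. Open circles are Insig1 entries listed at 0, and the triangle is a value of -12.81 that lies off the axis.

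The spread at 4 h set Idi1, Fdps, Fdft1 and Sqle apart from most of the array. Their SDs over the 5 pairs were 0.58, 0.62, 0.62 and 0.57, larger than those of 98.1%, 98.4%, 98.5% and 97.9% of all features, whose median SD was 0.20. At 20 min the SDs of the same genes were 0.16, 0.20, 0.22 and 0.09, against a median of 0.17, and 47.2%, 62.2%, 69.4% and 16% of features had a smaller one. Lss, with an SD of 0.21 at 4 h, and Cyp51, with 0.14, lay in the bulk of the features at both times. These are descriptions of 5 and 4 arrays, and the difference in spread between the times was not tested.

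Pair 5 stood highest in each of the 4 genes, and pair 4 stood far below the other pairs in Fdps and Sqle. In Idi1 pair 4, at -0.09, was level with pairs 1 and 3, and pairs 5 and 2 carried the spread. Pair 4 was lowest and pair 5 highest in 4 of the 7 measured members, and in 5.36% of all features. This order was picked out after the values had been seen. The median ratio of Idi1, Fdps, Fdft1, Sqle and Lss was -0.61 in pair 4 and 0.79 in pair 5, and lay between 0.06 and 0.25 in the other pairs at 4 h. At 20 min it lay between -0.19 and 0.13, and on the same-RNA arrays between -0.07 and 0.11. Cyp51 did not follow, at -0.39 in pair 4 and -0.58 in pair 5. Insig1, at -0.29 in pair 4 and 0.04 in pair 5, was highest in pair 5 but lowest in pair 2. The median was taken without these 2 members, and its genes include the 4 by which the order was picked out.

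Pair 4 was the lowest and pair 5 the highest of the 4 h values in each of the 4 genes. Leaving out either pair therefore had to move their means in opposite directions, and only the sizes are given. Between 4 h and 20 min the difference of Fdps was 0.44 without 4 h pair 4 and 0.01 without pair 5, and that of Sqle was 0.35 and -0.04. For Fdft1 it was 0.22 and -0.18. That of Idi1 was 0.36 without pair 4 and 0.03 without pair 5. None of these passed the test. Other values of the 2 arrays are given beside this pattern, and their part in it was not tested. Slc2a5 had a ratio of 1.84 in pair 4 and 1.33 in pair 5, so both carried the large ratio of that gene. The median of the enterocyte markers was -0.36 in pair 4, the lowest of the 5 pairs, and -0.10 in pair 5. That of 6 measured immune markers was -0.05 and 0.15, and that of 5 smooth muscle markers 0.07 and 0.06.

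**Figure D3:**
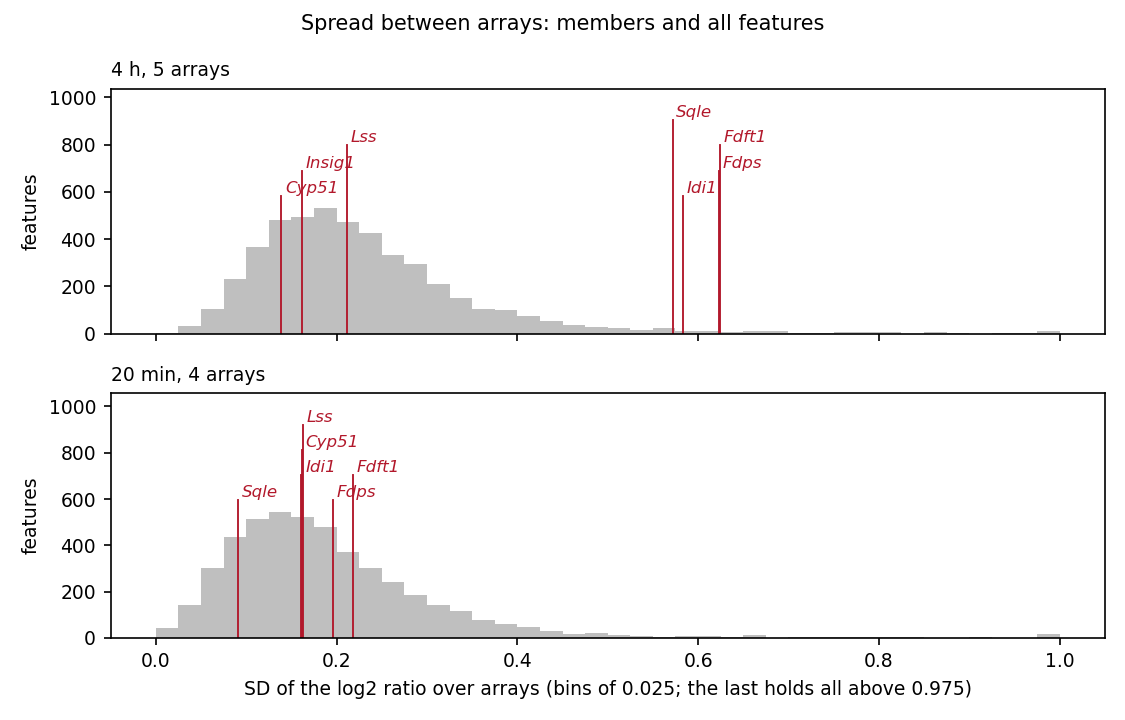
Number of features (y axis) by the SD of their log2 ratio over arrays (x axis) at 4 h (upper panel) and 20 min (lower panel), with the members marked by red lines. At 4 h Idi1, Fdps, Fdft1 and Sqle have SDs of 0.57 to 0.62 in the upper tail, and at 20 min all 6 members shown lie in the bulk.

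Insig1 encodes the membrane protein that holds back SREBP processing, and it is itself a known SREBP target. Its ratios at 4 h were -0.21, -0.33, -0.04, -0.29 and 0.04 in pairs 1 to 5, so 4 of the 5 were on the HG side. On the same-RNA arrays 3HG and 3HF they were 0.52 and 0.17, above all 5 arrays at 4 h. The same-RNA array 1HG gave -12.81, which as deposited was the lowest value of its 4952 probes. All 4 entries at 20 min were exactly 0 as deposited, so no comparison with 20 min was made for Insig1. The difference between 4 h and the same-RNA arrays was 3.88 ± 2.28 (SE; limma adjusted p = 0.526) and rested on the array 1HG. Without that array it was -0.51 on the HG side and did not pass (adjusted p = 0.284). Both fits held the 4 entries of 0 at 20 min, so the SE and these p-values rest partly on entries not read as measurements. A fit of only the 4 h and same-RNA arrays, 1HG included, gave 3.88 ± 2.69 (SE; limma adjusted p = 0.658).

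Over the measured members, 1 was called between 4 h and 20 min, Cyp51, and 0 were called in the other comparisons. Among all features 0.598% were called between the times, 0.0641% at 4 h against the same-RNA arrays and 0.0427% at 20 min against them. With groups of arrays that did not overlap there was 1 member between the times, of 6 measured at both, against 6.54% of all features, and 1 of 7 at 4 h against the same-RNA arrays, against 6.71%. At 20 min there were 0 of 6, against 7.01%. At an unadjusted p below 0.05 Cyp51 was the 1 member in both comparisons with 4 h, where 13.5% of features passed that mark between the times and 9.97% against the same-RNA arrays, and at 20 min 0 members did, against 5.21%. The median difference of the members was 0.11 between the times, and -0.01 over all features. It was -0.016 without 4 h pair 5 and 0.29 without 4 h pair 4. With no array left out, 1 of 6 members lay below 0 between the times, against 52% of features. At 4 h against the same-RNA arrays the median was 0.02, and 3 of 7 lay below 0, against 51.5%. It was -0.16 without 4 h pair 5 and 0.23 without 4 h pair 4. At 20 min it was -0.09, and 4 of 6 lay below 0, against 49.4%. The comparisons share arrays, so these counts are not independent of each other.

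**Figure D4:**
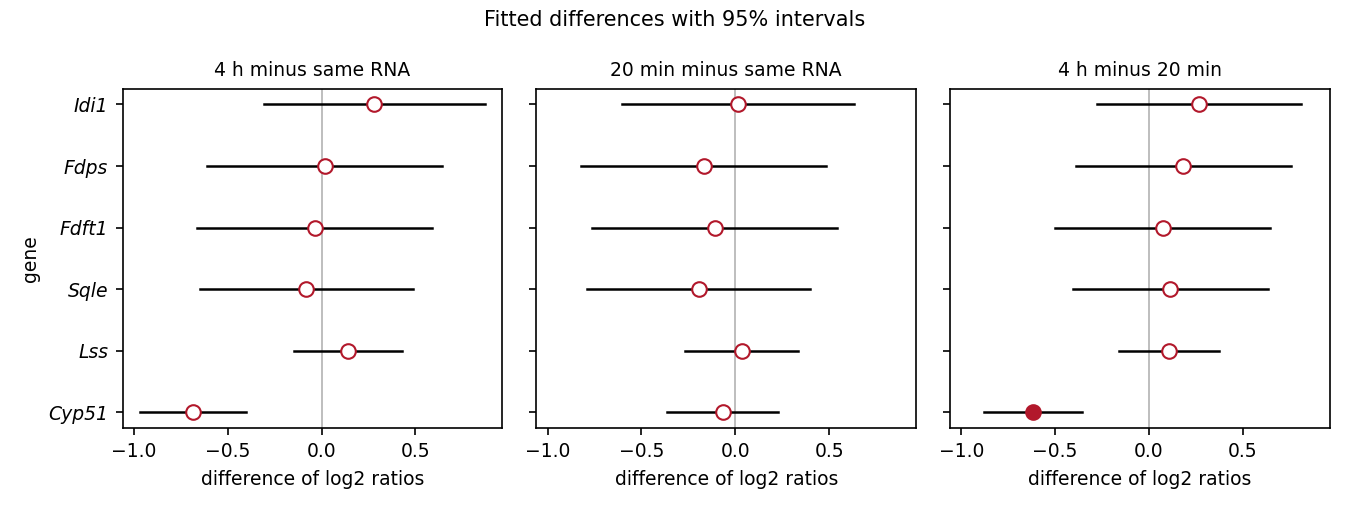
Fitted difference of log2 ratios (x axis) with its 95% interval for 6 members in pathway order (y axis), for 4 h minus same RNA, 20 min minus same RNA and 4 h minus 20 min. The 1 filled point is Cyp51 between the times, at -0.62, and the intervals of the other 5 genes cross 0 in all 3 panels.

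Other genes of the sterol pathway were taken from a list of 74, of which 34 were measured and 32 had a ratio at 20 min. None was called in any comparison. Between 4 h and 20 min 21 lay below 0 and 11 above, and the median was -0.03, against -0.01 over all features. Of the 7 other synthesis genes measured, 4 had their highest 4 h ratio in pair 5 and 3 their lowest in pair 4, against 22.4% and 19.7% of all features. Mvd, Msmo1 and Dhcr7 had both, against 5.36% of all features.

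Msmo1 encodes the methyl oxidase that takes over after Cyp51 in trimming lanosterol. Its ratios at 4 h were 0.21, 0.42, -0.01, -0.70 and 1.66 in pairs 1 to 5, against 0.23, -0.06, -0.21 and -0.24 at 20 min and 0.01, 0.15 and 0.04 on the same-RNA arrays. Pair 5 was highest and pair 4 lowest, as in Idi1, Fdps, Fdft1 and Sqle, and the SD of 0.86 was larger than that of 99.6% of features. Its difference between the times was 0.39 ± 0.35 (SE; limma adjusted p = 0.703). Msmo1 also had the ratio most like the mean of the 6 members measured on all 9 HF to HG arrays, with Pearson r = 0.94 (Spearman 0.82). Without the 2 arrays farthest from the median of that mean, pairs 4 and 5 at 4 h, r was 0.70 over 7 arrays. Next came Erp29 (r = 0.92), Kpnb1 (0.90), Dffa (0.89) and Adra1a (0.88), for which r without those 2 arrays was 0.83, 0.28, 0.60 and 0.08. These are descriptions over the same arrays, picked from 4156 features with a symbol.

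Of the genes that handle cholesterol after synthesis or uptake, Lipa, the lysosomal acid lipase that frees cholesterol from its esters, had ratios at 4 h of -0.60, -0.17, -0.43, -0.86 and -0.73. Those at 20 min were 0.04, 0.17, -0.0028 and -0.27. Only pair 2 at 4 h reached into the 20 min range, and the difference of -0.54 ± 0.14 did not pass (SE; limma adjusted p = 0.128; unadjusted p = 0.00213). Against the same-RNA arrays it was -0.50 ± 0.15 (adjusted p = 0.341). Cyp27a1, which encodes a mitochondrial enzyme that hydroxylates the sterol side chain, lay to the other side, with a mean of 0.41 ± 0.36 at 4 h (SD, n = 5) and -0.03 ± 0.16 at 20 min (SD, n = 4), and differed by 0.43 ± 0.17 (SE; adjusted p = 0.274). Nfyb, a subunit of NF-Y, differed by -0.40 ± 0.13 between the times (adjusted p = 0.213), with 4 h ratios from -0.90 to -0.24 below the 20 min ratios from -0.14 to 0.07. Its same-RNA ratios were -0.06, -0.05 and -0.27 and reached into the 4 h range. The 4 h difference from them was -0.30 ± 0.15 (SE; adjusted p = 0.492). Cel, a bile salt-stimulated lipase of the pancreas that splits sterol esters, had a 4 h difference from the same-RNA arrays of -0.37 ± 0.17 (adjusted p = 0.492). Its ratios ran from -1.02 to -0.49 at 4 h and from -0.73 to -0.39 at 20 min. On the same-RNA arrays they were -0.55, -0.02 and -0.53, so the groups overlapped.

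The second array of pair 2 was left out of the fit. On it Cyp51 had a ratio of 0.38, against -0.40 on the first array of that pair, and Idi1 had -0.77 against 0.51. Fdft1 had -0.10 against 0.10. All of these turned sign, as Slc2a5 did. Lss (0.40 and 0.33), Fdps (0.24 and 0.19), Sqle (0.04 and 0.25) and Insig1 (-0.19 and -0.33) kept their sign between the 2 arrays. Relative to the median of the same-RNA arrays 4 of the 7 members lay on opposite sides on the 2 arrays, against 45.4% of all features. On the primer array the members ranged from -0.23 to 0.15.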

How the data were processed

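The authors deposited 1 value for each of 4952 probes on 14 two-colour arrays of rat small intestine, taken as log2 ratios of the 2 channels. Not given in the sources used here are the log base, direction, scanner, background correction and normalization, and depth and signal over background are unknown. GEO's platform annotation gave 4426 probes 1 symbol, 2 several and 524 none. Each array was centred on its median and probes of 1 symbol were averaged to 4682 features. Arrays at 4 h (5), at 20 min (4) and with the same RNA (3) entered 1 fit in limma 3.58.1 (R 4.3.3; lmFit, eBayes), with Benjamini-Hochberg adjustment over all features and a threshold of 0.05. The second array of pair 2 and the primer array were left out. The fit was tested on simulated data. Alternatives were centring, scaling, quantile normalization, probe averaging, array weights, a robust prior, the array of pair 2, 2-group fits, the ratio against 0, a replicate block and leaving out each array. Another 2, setting exact zeros or extreme values on 1HG to missing, were chosen after seeing the data. The members and all lists were chosen with earlier results of these data known. The text names every measured member, listed pathway genes with an unadjusted p below 0.05, the 5 genes most correlated with the members' mean, and Slc2a5 for direction. Other synthesis genes with pair 4 lowest and pair 5 highest at 4 h are named too. Promoters came from RefSeq (GRCr8).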

Additional observations from a re-analysis of the deposited data

Results flagged for a closer look

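The Lss ratio of pair 4 at 4 h, -0.20, lay apart from the other 4 pairs by the Dixon test at the 95% level. Chance marks about 1 in 20 groups, and 13 groups of members were looked at. The ratio of Cyp51 differed between the arrays of the perfusion times, by -0.62 for 4 h minus 20 min (limma adjusted p = 0.0469). Each time had its own arrays, so time cannot be told apart from the set of arrays.

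The second array of pair 2, which was left out of the main fit, had ratios beyond the range of the 3 same-RNA arrays for 4 members. These were 0.24 for Fdps, -0.10 for Fdft1, 0.40 for Lss and -0.77 for Idi1. The SD of this array over all probes was 0.82, wider than on the other arrays that set HF against HG.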

How the results depend on the processing

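The Cyp51 difference between 4 h and 20 min was below 0 in all alternatives run. It lost its call, leaving 0 members called, with arrays scaled to 1 median absolute deviation (-0.56), with quantile normalization (-0.57), and with the second array of pair 2 averaged in as deposited (-0.54), with its sign turned (-0.61) or turned about the same-RNA mean (-0.58). It also lost it with a replicate block (-0.60, adjusted p = 0.128). Same-numbered pairs at the 2 times had correlations of -0.07 to 0.16, and 1 of 4 matched its own number best, so the numbers were not taken as pairs. With the block Sqle was -0.043 and Fdft1 -0.18, the values of the fit without 4 h pair 5, which has no partner at 20 min. Without 1 array, 0 members were called in each of the 9 fits, Sqle ranged from -0.043 to 0.35 and Fdft1 from -0.18 to 0.22.

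Of all features, 28 were called between the times, against 16 with scaled arrays, 0 and 18 with the array of pair 2 as deposited and sign turned, and 4 to 29 without 1 array. At 4 h against same RNA the 3 calls became 0 with that array as deposited, 763 for the ratio against 0 (1 member, Cyp51) and 2 to 5 without 1 array. At 20 min the 2 calls became 0 with scaled arrays, each treatment of that array or 2 groups, 384 against 0 and 0 to 4 without 1 array.

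Signs turned at 4 h against same RNA for Sqle (0.064 against 0; -0.24 to 0.15 without 1 array), Fdps (-0.012 scaled; -0.027 and -0.010 with the array of pair 2 turned in sign or about the mean; -0.16 to 0.27), Fdft1 (0.057 quantile; -0.29 to 0.11) and Insig1 (-0.16 against 0; -0.51 without values beyond 4 on 1HG; -0.51 to 6.16). At 20 min they turned for Cyp51 (0.12 against 0; -0.15 to 0.067), Lss (-0.015 to 0.11) and Idi1 (-0.057 to 0.12). The cause was not tested. The number of arrays limits precision.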
